A study of Mus musculus with 15 samples.

Results

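The genes of insulin signalling and glucose transport described here are 10 genes chosen by symbol: Insr, Irs1, Irs2, Akt1, Akt2, Tbc1d1, Tbc1d4, Slc2a1, Slc2a4 and Txnip. All 10 were found among the 22798 gene symbols of the count table, each with 1 row across 15 RNA sequencing libraries of mouse skeletal muscle. The libraries were 3 from mice labelled CD47-KO (CD47-/-), 6 from exercise mice and 6 from sedentary WT mice. Whether the CD47-KO mice were exercised, and the genotype of the exercise mice, are not stated here. Genotype and exercise therefore cannot be told apart in the comparison of CD47-KO with exercise libraries. All mice were C57BL/6, 12 months of age, on a normal diet and starved overnight before the muscle was taken. The labels give neither the kind nor the length of the exercise, nor which muscle was taken, how the knockout allele was made or whether each library is a separate animal. The p-values therefore measure the spread between these libraries, which may be technical.

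Insulin binds the insulin receptor on the muscle fibre, and the receptor phosphorylates the adaptors IRS1 and IRS2. These recruit phosphoinositide 3-kinase, which leads to activation of the kinases AKT1 and AKT2. AKT phosphorylates TBC1D4 and TBC1D1, and the vesicles that hold the glucose transporter GLUT4 then move to the cell surface. GLUT1 serves basal uptake, and TXNIP, a protein of the arrestin family, restrains glucose uptake. Muscle contraction drives GLUT4 to the surface by a partly separate route, and fasting lowers insulin. Phosphorylation and transport were not measured: the values below are RNA levels.

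The promoters of the paired adaptors are shown because Irs1 passed the test in the libraries labelled CD47-KO in each setting tried, while Irs2 did not pass it over all libraries and differed between sets of replicate numbers. Each run is the 250 bases before the RefSeq start site on the gene's own strand in GRCm38.p6, at chr1:82291440-82291689 (minus strand) for Irs1 and chr8:11008930-11009179 (minus strand) for Irs2. Capitals mark CACGTG, the letters of an E-box, which TFE3 and other basic helix-loop-helix factors can bind.
Irs1: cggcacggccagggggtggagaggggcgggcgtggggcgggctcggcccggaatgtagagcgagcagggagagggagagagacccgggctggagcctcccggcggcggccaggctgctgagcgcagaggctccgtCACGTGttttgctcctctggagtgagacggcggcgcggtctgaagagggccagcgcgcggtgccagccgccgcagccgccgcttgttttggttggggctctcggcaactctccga
Irs2: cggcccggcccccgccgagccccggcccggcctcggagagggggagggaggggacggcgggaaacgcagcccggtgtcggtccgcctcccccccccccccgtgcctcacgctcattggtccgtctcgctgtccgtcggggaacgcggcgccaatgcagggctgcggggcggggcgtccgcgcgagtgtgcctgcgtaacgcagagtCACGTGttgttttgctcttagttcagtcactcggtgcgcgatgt
Both runs held CACGTG once, starting at position -115 of Irs1 and -44 of Irs2 from the start site, inside an identical run of 10 letters, gtCACGTGtt. Of 32851 windows in the RefSeq table, each from 250 bases before to 50 bases after a start site, 7.15% held CACGTG. Windows were found for 8 of the 10 members, 13 windows in all, and none for Insr or Slc2a4. No window of the other 6 members held these letters. The forkhead letters GTAAACA, which FOXO proteins can bind, were searched on both strands and lay in the Txnip window at -121 and in 1 of the Akt1 windows at -161 on the other strand, against 3.65% of all windows. A match of letters is a description and not a shown binding site.

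Cd47, the gene named by the knockout label, was counted in every library. Its level, in library-scaled CPM, was 11.5, 12.1 and 12.1 in libraries labelled CD47-KO 1 to 3. The exercise libraries ranged from 10.8 to 15.7 CPM with a median of 13.8, and the sedentary libraries from 11.4 to 16.4 CPM with a median of 14.0. The log2 fold change of CD47-KO was -0.26 against sedentary (SE 0.17, adjusted p = 0.295) and -0.17 against exercise (SE 0.17, adjusted p = 0.518) by edgeR's quasi-likelihood test. Cd47 was thus not lower by the test, and "CD47-KO" is used as a label; the labels do not say which exons the allele removes. After a correction for GC content, described with the AKT genes, its CPM was 6.99 to 7.31 in CD47-KO, 12.8 to 17.2 in exercise and 12.6 to 25.0 in sedentary libraries, so that CD47-KO lay below both.

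Totals were 76005277 to 84364189 counts in CD47-KO, 54851831 to 77628546 in exercise and 50928458 to 70774311 in sedentary libraries. The least covered member, Slc2a1, had 71 to 963 counts per library, and the most covered, Txnip, 5853 to 63040. Mitochondrially encoded genes took 18.1 to 19.2% of counts in CD47-KO, 4.49 to 12.5% in exercise and 4.77 to 18.2% in sedentary libraries, where sedentary 6 held the highest share. The muscle label held: the 14 fibre genes from Acta1 to Actn3 summed to 129179 to 176450 CPM in CD47-KO, 179614 to 292768 in exercise and 145792 to 259960 in sedentary libraries, none at 0. The sum was below every exercise library in each CD47-KO library. Sedentary 1 stood apart with 24595 CPM of slow fibre genes, against 1054 to 7975 in CD47-KO, 92.0 to 4541 in exercise and 1458 to 9119 in the other sedentary libraries. The first principal component (23.7% of the variance) parted exercise and sedentary numbers 1 to 3 from numbers 4 to 6. CD47-KO lay on it at -63.7 to -54.5, on the side of numbers 1 to 3 (-49.7 to -30.9), with numbers 4 to 6 at 48.4 to 115.7. The second (21.3%) parted CD47-KO, at 88.6 to 92.75, from the rest. It also parted the sets, at -76.1 to -40.7 for numbers 1 to 3 and 0.979 to 21.6 for numbers 4 to 6. No label names these sets, and for CD47-KO a batch of its own and the group cannot be told apart.

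Divided by exonic length, the transporter Slc2a4 and the brake Txnip stood at the top of the group means in each group and Slc2a1 at the bottom. Txnip averaged 182 ± 45.8 CPM per kilobase in CD47-KO (SD, n = 3), 134 ± 35.6 in exercise and 136 ± 57.4 in sedentary libraries (SD, n = 6 each). Slc2a4 averaged 96.9 ± 16.7 CPM per kilobase in CD47-KO, 138 ± 10.7 in exercise and 124 ± 7.18 in sedentary libraries. These top 2 genes differed by less than their spread in exercise and in sedentary libraries, and by more than it in CD47-KO. Akt2 came next in each group, at 32.8 ± 0.157 CPM per kilobase in CD47-KO, 42.0 ± 5.82 in exercise and 38.4 ± 6.39 in sedentary libraries, above Akt1 at 9.02 ± 1.96 in CD47-KO, 13.5 ± 1.08 in exercise and 14.2 ± 1.89 in sedentary libraries. Of the adaptors, Irs2 averaged above Irs1 in each group. Irs1 stood at place 8 of 10 at 3.69 ± 0.644 CPM per kilobase in exercise and 4.01 ± 0.969 in sedentary libraries, and at place 5 at 12.0 ± 0.740 in CD47-KO. Irs2, at 16.9 ± 4.46 CPM per kilobase in CD47-KO, 19.9 ± 16.5 in exercise and 12.0 ± 9.24 in sedentary libraries, was within its spread of the gene next below it in each group, as was Irs1. Slc2a1 averaged 2.44 ± 0.880 CPM per kilobase in CD47-KO, 2.09 ± 0.519 in exercise and 1.93 ± 0.843 in sedentary libraries. Insr, the gene next above it, averaged 8.94 ± 1.29 CPM per kilobase in CD47-KO, 2.91 ± 2.30 in exercise and 2.53 ± 1.93 in sedentary libraries, and in exercise and sedentary libraries it was within its spread of Slc2a1. Insr lay below Slc2a1 in exercise 4 to 6, at 0.660 to 0.933 CPM per kilobase against 2.02 to 3.03, and in sedentary 2, 4 and 5. In bulk muscle, fewer cells of a type and less RNA per cell cannot be told apart.

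**Figure D1:**
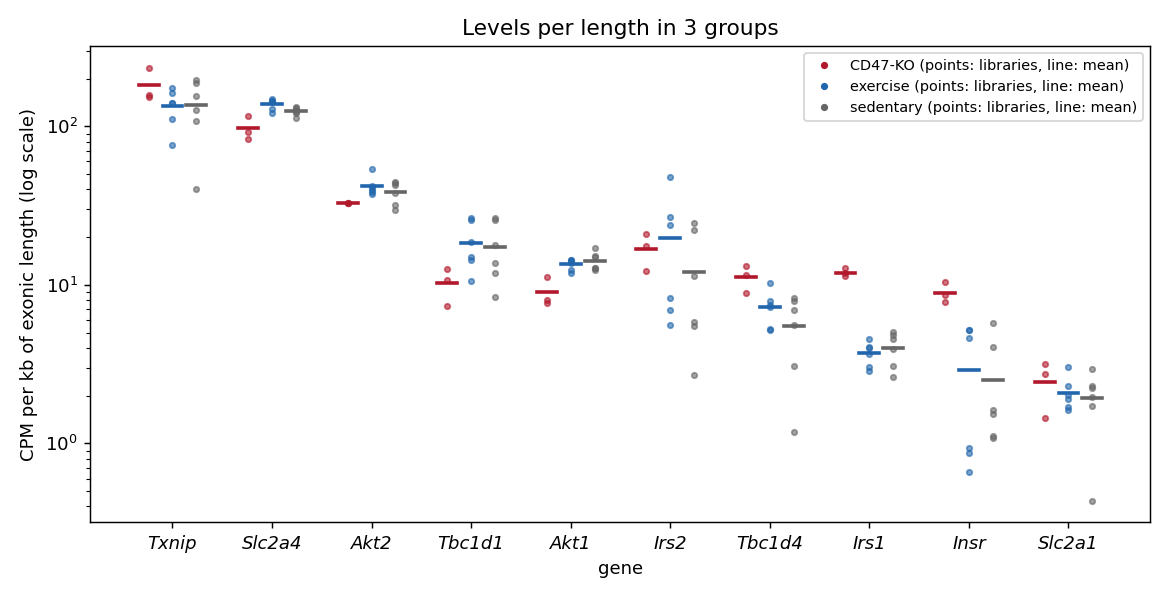
Level of each gene in CPM per kilobase of exonic length (log scale) in CD47-KO (red, n = 3), exercise (blue, n = 6) and sedentary (grey, n = 6) libraries. Points are libraries and lines are group means; by group mean Txnip and Slc2a4 lie highest and Slc2a1 lowest, while the Insr points of exercise 4 to 6 lie below those of Slc2a1, and the Irs1 points of CD47-KO lie apart from the other groups.

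Comparing CD47-KO with both other groups asks how muscle of these mice differs in the genes of glucose uptake. Irs1 was higher against both groups, about 3-fold, and this held in each alternative setting tried. Akt1 was lower against both groups and Slc2a4 against exercise, by less than 2-fold, but none of these 3 calls was kept after a correction for GC content. Insr and Tbc1d4 lay above all sedentary libraries without passing the test. Against sedentary, 2 of the 10 members passed the threshold (adjusted p under 0.05), where 20.7% of the 17975 genes tested did; against exercise 3 of 10 passed, where 20.6% of all genes did. The groups did not overlap in CPM for 4 of 10 members against sedentary, where 26.0% of all genes did not, and for 5 of 10 against exercise, where 31.7% did not. The members' counts were thus near the background in both comparisons, which share the same 3 CD47-KO libraries.

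**Figure D2:**
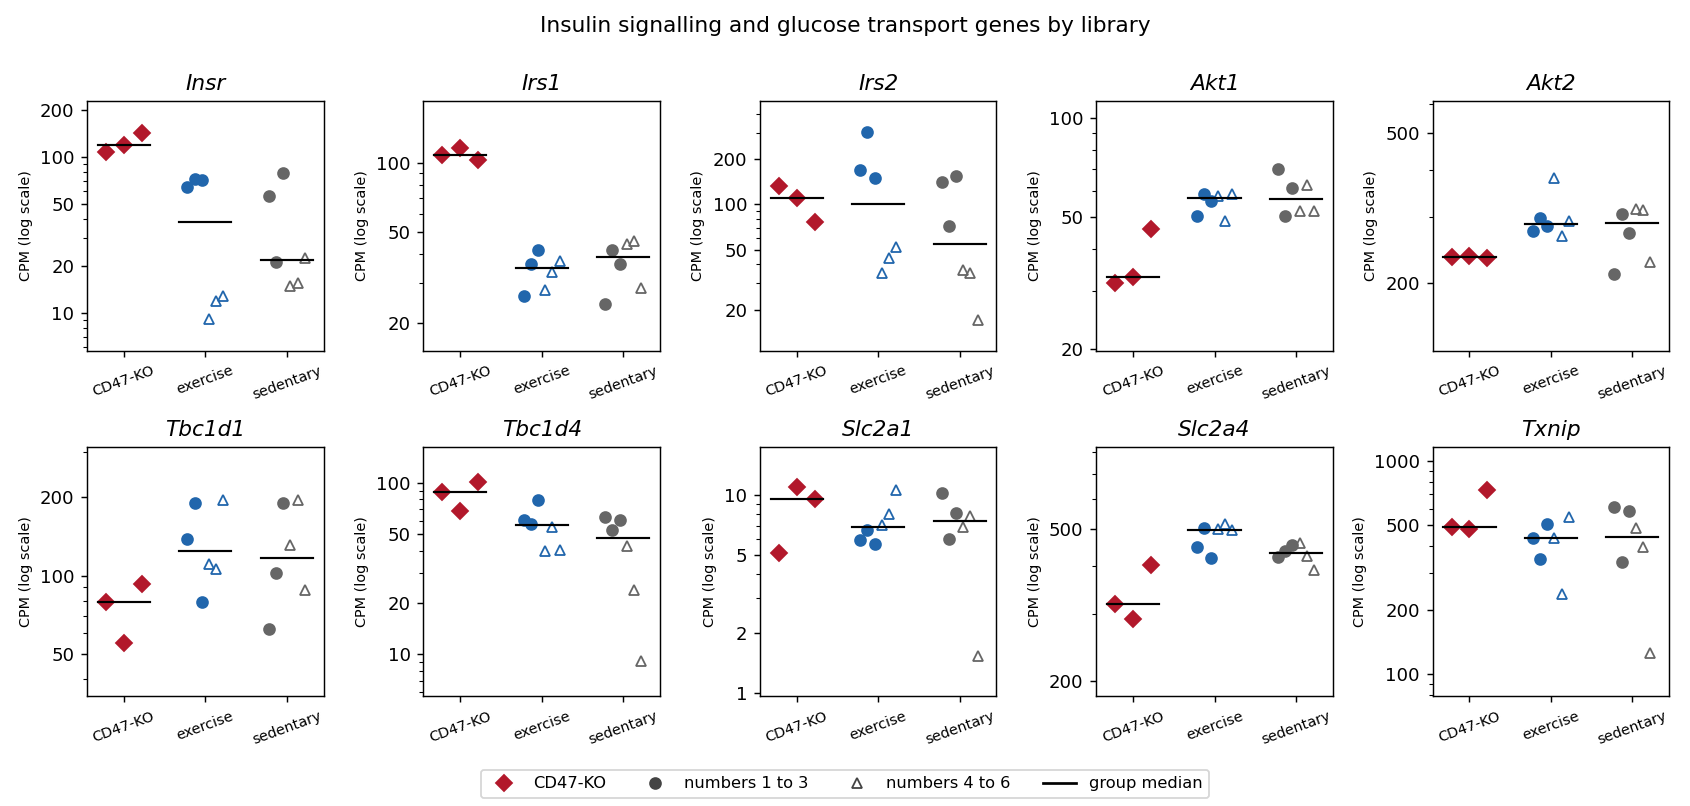
CPM (log scale) of each member in every library, with CD47-KO as diamonds, numbers 1 to 3 of exercise and sedentary as filled circles, numbers 4 to 6 as open triangles and group medians as lines. Irs1 in CD47-KO (103 to 117 CPM) lies above all other libraries (24.1 to 45.8 CPM), and the Irs2 circles lie above the Irs2 triangles.

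Irs1, the adaptor that carries much of the receptor's signal in muscle, gave the clearest difference. It lies on chromosome 1 from 82233101 to 82291416 (GRCm38, minus strand). Its level was 108, 117 and 103 CPM in CD47-KO libraries 1 to 3. The exercise libraries had 26.1 CPM at the lowest, 34.9 at the median and 41.6 at the highest, and the sedentary libraries 24.1, 38.9 and 45.8 CPM at the same points. The 3 CD47-KO libraries were all more than 50 CPM above the highest other library. The log2 fold change was 1.57 against sedentary (SE 0.21, adjusted p = 0.000111) and 1.70 against exercise (SE 0.21, adjusted p = 4.42e-05) by edgeR's quasi-likelihood test. With the GC correction it was 1.68 against sedentary (SE 0.20, adjusted p = 0.000158) and 1.88 against exercise (SE 0.20, adjusted p = 3.98e-05). The call was kept in 13 of 13 other settings and in 9 of 9 fits without 1 library in both comparisons, from 1.41 to 1.76 against sedentary and from 1.59 to 1.88 against exercise over those settings. Sedentary 6, with a mitochondrial share like that of CD47-KO, had 28.3 CPM of Irs1. This is 1 library, and the part of the mitochondrial share in the Irs1 difference was not tested. Of the 9144 exonic bases of Irs1, 2822 overlap exons of Gm9747 on the other strand, which has no row in the table; the strand setting of the counting is not given in the sources used here, so reads of the pair cannot be told apart over those bases.

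Insr encodes the receptor itself and lies on chromosome 8 from 3122061 to 3279617 (minus strand). CD47-KO libraries 1 to 3 held 108, 119 and 142 CPM. In exercise its lowest, median and highest levels were 9.07, 38.2 and 71.7 CPM, and in sedentary libraries 14.8, 21.7 and 79.1 CPM. All 3 CD47-KO libraries lay above all 12 others, and those 12 were themselves spread widely. Its log2 fold change was 1.82 against sedentary (SE 0.66, adjusted p = 0.0607) and 1.62 against exercise (SE 0.66, adjusted p = 0.0955), neither past the threshold. With the GC correction it was 1.55 against sedentary (adjusted p = 0.159) and 1.42 against exercise (adjusted p = 0.206). Against sedentary numbers 1 to 3 alone it was 1.32 (adjusted p = 0.0213 by edgeR), and against numbers 4 to 6 alone 2.86 (adjusted p = 0.000152). Of 9 fits without 1 library against sedentary, 1 passed, that without sedentary 3, the library at 79.1 CPM (adjusted p = 0.0247). The adjusted p in the others went up to 0.157. Against exercise 0 of 9 such fits passed. The log2 fold change against exercise numbers 1 to 3 alone was 0.93 (adjusted p = 0.0799), and against numbers 4 to 6 alone 3.49 (adjusted p = 5.22e-05). Insr was called in 5 of 13 other settings against sedentary and in 4 of 13 against exercise.

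Irs2, the second adaptor, did not follow Irs1. CD47-KO libraries 1 to 3 held 133, 111 and 76.9 CPM, inside the range of both other groups. Exercise libraries had 35.1, 101 and 304 CPM at the lowest, median and highest, and sedentary libraries 17.0, 54.2 and 155 CPM. Fold changes on the log2 scale were 0.49 against sedentary (SE 0.68, adjusted p = 0.671) and -0.23 against exercise (SE 0.70, adjusted p = 0.857). Its sign against each group depended on the numbers compared: against sedentary it was -0.12 for numbers 1 to 3 (adjusted p = 0.824) and 1.90 for numbers 4 to 6 (adjusted p = 0.00283), and against exercise -0.87 for numbers 1 to 3 (adjusted p = 0.0850) and 1.33 for numbers 4 to 6 (adjusted p = 0.0135).

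Akt1, the kinase form tied more to growth, lies on chromosome 12 from 112653821 to 112674884 (minus strand). CD47-KO libraries 1 to 3 held 31.6, 33.1 and 46.2 CPM. Exercise libraries had 48.9, 57.1 and 59.0 CPM at the lowest, median and highest, and sedentary libraries 50.5, 56.9 and 70.2 CPM. The CD47-KO libraries lay below all others, library 3 by less than 3 CPM. On the log2 scale the fold change was -0.66 against sedentary (SE 0.17, adjusted p = 0.0134) and -0.58 against exercise (SE 0.17, adjusted p = 0.0249). The call against sedentary was lost without CD47-KO 1 (adjusted p = 0.125) or CD47-KO 2 (adjusted p = 0.0642), and that against exercise in 6 of 9 fits without 1 library (CD47-KO 1 or 2, exercise 2, 3, 4 or 6; adjusted p up to 0.200). The call was kept in 9 of 13 other settings against sedentary and in 8 of 13 against exercise.

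Akt2, the form that insulin uses to move GLUT4, lay within 233 to 235 CPM in the 3 CD47-KO libraries. Exercise libraries had 267, 288 and 381 CPM at the lowest, median and highest, and sedentary libraries 211, 289 and 315 CPM. CD47-KO therefore lay below exercise without overlap and inside the sedentary range. Its log2 fold change was -0.23 against sedentary (SE 0.18, adjusted p = 0.431) and -0.35 against exercise (SE 0.18, adjusted p = 0.194).

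The fold changes of CD47-KO followed the GC content of the transcripts over the whole table, and Akt1 has the highest GC content of the members, followed by Irs2, Akt2 and Slc2a4. Over 10395 genes, Spearman's rho of log2 fold change with GC content was -0.65 for CD47-KO against sedentary, -0.65 against exercise and 0.02 for exercise against sedentary; genes are not independent replicates, and no p is given. For CD47-KO over sedentary, genes of the lowest GC decile had a median log2 fold change of 1.23 and those of the highest decile -0.58. Akt1 has a GC content of 59.7%, Irs2 56.6%, Akt2 55.2% and Slc2a4 54.6%, while Insr has 46.8% and Txnip 48.3%. With an offset that removes the trend, Akt1 moved to -0.12 against sedentary (adjusted p = 0.744) and -0.04 against exercise (adjusted p = 0.929). Akt2 became 0.18 against sedentary (adjusted p = 0.641) and 0.11 against exercise (adjusted p = 0.800), above 0 in both. Under this correction 1 of 10 members, Irs1, was called against each group, where 9.73% of all genes were called against sedentary and 9.59% against exercise. The groups then did not overlap for 3 members against sedentary (Insr, Irs1 and Tbc1d4), where 17.2% of all genes did not, and for 2 against exercise (Insr and Irs1), where 22.2% did not.

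**Figure D3:**
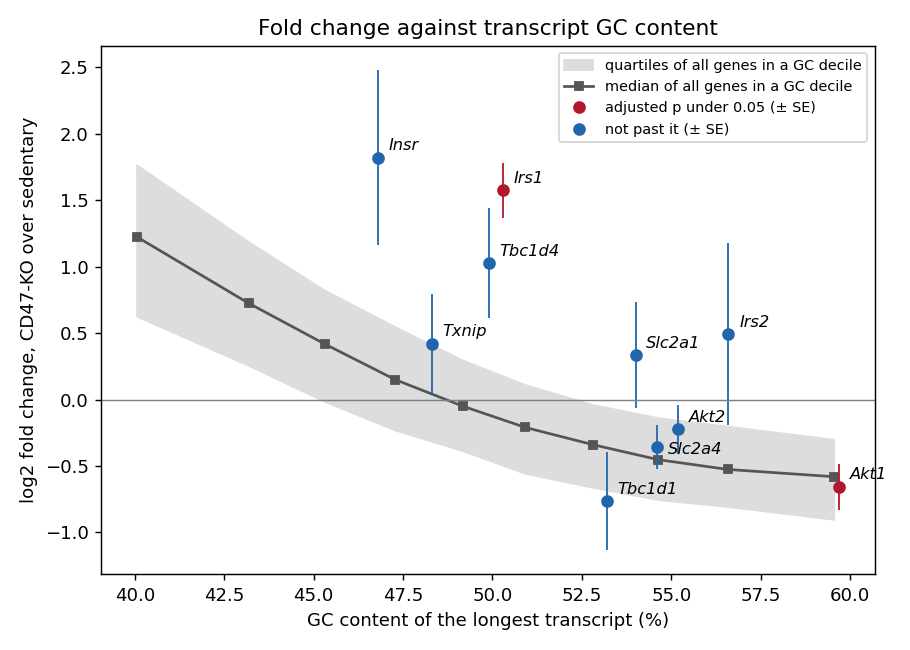
Log2 fold change of CD47-KO over sedentary (± SE) against the GC content of the longest transcript for the 10 members, with the median (line) and quartiles (grey band) of all genes by GC decile. Akt1, Akt2 and Slc2a4 lie in the band, and Irs1 at 1.57 and Insr at 1.82 lie above it. Tbc1d4 at 1.03, Irs2 at 0.49 and Slc2a1 at 0.33 also lie above it, Txnip lies near its upper edge and Tbc1d1 at -0.76 lies below it.

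Tbc1d4 (AS160) and Tbc1d1 encode Rab GTPase-activating proteins that hold GLUT4 vesicles inside the fibre until they are phosphorylated. For Tbc1d4, CD47-KO libraries 1 to 3 held 88.5, 68.3 and 102 CPM. Exercise libraries had 39.8, 56.6 and 78.9 CPM at the lowest, median and highest, and sedentary libraries 9.10, 48.0 and 63.6 CPM. CD47-KO lay above all sedentary libraries and overlapped exercise. The log2 fold change was 1.03 against sedentary (SE 0.41, adjusted p = 0.0893) and 0.64 against exercise (SE 0.42, adjusted p = 0.313), and with the GC correction 1.13 against sedentary (adjusted p = 0.0803) and 0.78 against exercise (adjusted p = 0.248). Without sedentary 6, the library at 9.10 CPM, it was 0.89 against sedentary and past the threshold (adjusted p = 0.0358 by edgeR). This was the 1 call in 9 fits without 1 library against sedentary (adjusted p up to 0.237). Tbc1d4 was called in 4 of 13 other settings against sedentary and in 1 of 13 against exercise. For Tbc1d1, CD47-KO libraries 1 to 3 held 79.3, 54.7 and 92.7 CPM. Exercise libraries had 78.8, 125 and 196 CPM at the lowest, median and highest, and sedentary libraries 62.2, 117 and 195 CPM, so that the groups overlapped. Its log2 fold change was -0.76 against sedentary (SE 0.37, adjusted p = 0.162) and -0.86 against exercise (SE 0.37, adjusted p = 0.119), the other sign from Tbc1d4. With the GC correction it was -0.46 against sedentary (adjusted p = 0.505) and -0.48 against exercise (adjusted p = 0.486). Without sedentary 1 and 6, Tbc1d1 was -0.997 against sedentary (adjusted p = 0.0441 by edgeR) and Tbc1d4 0.97 (adjusted p = 0.0319). Those libraries had the lowest sedentary levels of Tbc1d1, at 62.2 and 87.7 CPM. Tbc1d1 was called in that 1 of 13 other settings against sedentary, and in 0 of 9 fits without 1 library.

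Slc2a4 encodes GLUT4 and lies on chromosome 11 from 69942539 to 69948188 (minus strand). CD47-KO libraries 1 to 3 held 318, 291 and 403 CPM. Exercise libraries had 421, 499 and 516 CPM at the lowest, median and highest, and sedentary libraries 391, 432 and 460.4 CPM. CD47-KO lay below all exercise libraries and, apart from library 3, below all sedentary ones. On the log2 scale Slc2a4 differed by -0.51 against exercise (SE 0.16, adjusted p = 0.0351) and -0.36 against sedentary (SE 0.16, adjusted p = 0.133). The call against exercise was lost in 6 of 9 fits without 1 library (CD47-KO 1 or 2, exercise 2, 4, 5 or 6; adjusted p up to 0.204), and it was kept in 5 of 13 other settings. With the GC correction the values were -0.08 against exercise (adjusted p = 0.832) and 0.02 against sedentary (adjusted p = 0.959). The summed fibre genes given above were also lower in CD47-KO than in exercise libraries, and their part in the difference was not tested.

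Slc2a1, which encodes GLUT1 of basal uptake, stood at 5.10, 11.0 and 9.54 CPM over the CD47-KO libraries 1 to 3. Exercise libraries had 5.67, 6.88 and 10.6 CPM at the lowest, median and highest, and sedentary libraries 1.53, 7.39 and 10.3 CPM. The groups overlapped, and the log2 fold change was 0.33 against sedentary (SE 0.40, adjusted p = 0.612) and 0.22 against exercise (SE 0.40, adjusted p = 0.751). Endothelium and red cells also hold GLUT1: 12 endothelial genes summed to 279 to 332 CPM in CD47-KO, 333 to 600 in exercise and 239 to 678 in sedentary libraries, and 7 red cell genes to 173 to 285 CPM in CD47-KO, 254 to 1236 in exercise and 215 to 827 in sedentary libraries. The endothelial sum of each CD47-KO library lay below that of each exercise library. Their part in the Slc2a1 level was not tested.

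Txnip, on chromosome 3 from 96557957 to 96561883 (plus strand), stood at 489.9, 479.8 and 732 CPM over the CD47-KO libraries 1 to 3. Exercise libraries had 239, 437 and 545 CPM at the lowest, median and highest, and sedentary libraries 126, 443 and 610.4 CPM. CD47-KO 3 lay above all other libraries and the other two inside the range of each group. On the log2 scale Txnip differed by 0.42 against sedentary (SE 0.37, adjusted p = 0.470) and 0.44 against exercise (SE 0.37, adjusted p = 0.443). Exons of Txnip overlap the antisense gene Gm15441 over 606 bases, and that gene had 19 to 170 counts per library.

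**Figure D4:**
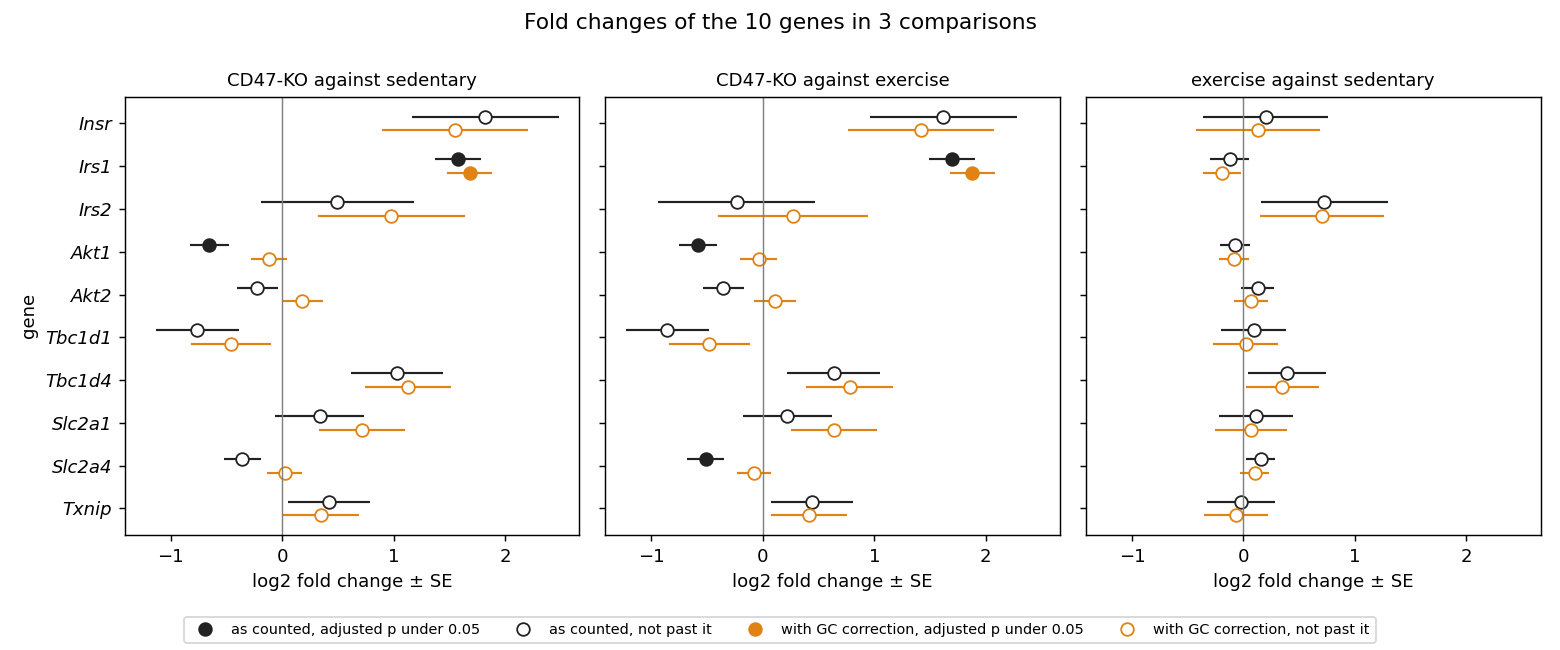
Log2 fold change ± SE of each member in 3 comparisons, as counted (black) and with the GC correction (orange); filled points have an adjusted p under 0.05. Irs1 is filled in both colours in both CD47-KO comparisons. Akt1 is filled in black alone in both of these and Slc2a4 in black alone against exercise only. No point is filled for exercise against sedentary.

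The comparison of exercise with sedentary mice asks what exercise alters in fasted muscle. No member of the insulin and glucose transport genes passed the test, and no member's groups were apart. By edgeR 0 of 10 members and 0% of the 17975 genes tested were called. An unadjusted p under 0.05 was found for 665 genes and none of the 10 members, where about 899 genes are expected by chance. DESeq2 called 10 genes, none of them a member, and limma-voom called 0. The groups overlapped in CPM for each member, where 0.161% of all genes did not overlap. The largest difference was Irs2, at a log2 fold change of 0.73 (SE 0.57, unadjusted p = 0.221), with 126 ± 104 CPM in exercise and 75.9 ± 58.4 CPM in sedentary libraries (SD, n = 6 each). Tbc1d4 followed at 0.39 (SE 0.35) with 55.5 ± 14.4 CPM in exercise and 42.2 ± 21.7 CPM in sedentary libraries, and Insr at 0.20 (SE 0.56). Slc2a4, whose level training is known to raise, was at 0.16 (SE 0.13), with 481 ± 37.3 CPM in exercise and 432 ± 25.0 CPM in sedentary libraries. Akt2 stood at 0.13 (SE 0.15), Irs1 at -0.12 (SE 0.18), Akt1 at -0.08 (SE 0.14) and Txnip at -0.02 (SE 0.31). Their adjusted p was 0.9998 for each gene, which does not show that the levels were the same. The SE was 0.56 for Insr and 0.57 for Irs2, and 0.13 to 0.35 for the other 8 members, so the precision differed among them.

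The spread of Insr and Irs2 lay mostly between the sets of numbers. In numbers 4 to 6, Irs2 had 35.1 to 52.3 CPM in exercise and 17.0 to 36.9 CPM in sedentary libraries. In numbers 1 to 3 it had 150.2 to 304 CPM in exercise and 71.4 to 155 CPM in sedentary libraries. All 6 libraries of numbers 4 to 6 lay below all 6 of numbers 1 to 3, as did 8.75% of the 15571 genes tested in these 12 libraries. Numbers 4 to 6 minus numbers 1 to 3 gave -2.15 for Irs2 (SE 0.26) and -2.09 for Insr (SE 0.30) on the log2 scale, and -0.89 for Tbc1d4 (SE 0.29), as a description with no p. Insr had 9.07 to 12.8 CPM in exercise numbers 4 to 6 and 63.5 to 71.7 CPM in exercise numbers 1 to 3. Sedentary Insr had 14.8, 15.4 and 22.4 CPM in numbers 4 to 6 and 55.8, 21.0 and 79.1 CPM in numbers 1 to 3, where library 2 lies just below library 6 and the sets overlap. For the other 7 members this difference was between -0.35 (Txnip, SE 0.31) and 0.12 (Akt2, SE 0.14, and Tbc1d1, SE 0.30). Summed Schwann cell genes also parted the sets, at 38.3 to 55.1 CPM in exercise and 46.4 to 63.4 in sedentary numbers 4 to 6, and 74.2 to 139 CPM in exercise and 86.4 to 282 in sedentary numbers 1 to 3. Summed adipocyte genes were 635 to 705 CPM in exercise numbers 4 to 6 and 866 to 985 in exercise numbers 1 to 3. In sedentary libraries they were 501 to 833 CPM in numbers 4 to 6 and 790.5 to 904 in numbers 1 to 3, where the sets overlap. The part of these cells was not tested. What the sets are is not in the labels, and the part of a batch in these differences was not tested.

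Within the sets, the exercise effect on Irs2 kept its sign, at 0.57 in numbers 4 to 6 (SE 0.32) and 0.75 in numbers 1 to 3 (SE 0.35), neither past the threshold. The effect on Insr was -0.63 (SE 0.22) in numbers 4 to 6 and 0.39 (SE 0.36) in numbers 1 to 3. Slc2a1 had 0.66 (SE 0.51) in numbers 4 to 6 and -0.44 (SE 0.29) in numbers 1 to 3. The test of the difference itself, numbers 4 to 6 minus numbers 1 to 3, gave -1.06 for Insr (SE 0.52, adjusted p = 0.964 by edgeR) and 1.06 for Slc2a1 (SE 0.63, adjusted p = 0.964 by edgeR). By this test 0 of 10 members and 0% of 15571 genes were called.

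Beyond the members, 114 genes of the same pathway in 9 lists were tested. Against sedentary, 17 were higher and 16 lower in CD47-KO, which is 28.9% of them beside 20.7% of all genes; with the GC correction 4 were higher and 5 lower, 7.89% beside 9.73%. Of the 33 called as counted, 7 were called in the same direction with the correction: Pik3ca, Foxo3 and Cltc were higher, and Vamp3, Aspscr1, Bad and Txn1 were lower. Against exercise, 17 were higher and 17 lower (29.8% beside 20.6%), 3 and 2 with the GC correction (4.39% beside 9.59%), and Pik3ca, Foxo3, Cltc and Vamp3 were called both ways. Exercise against sedentary gave 0 calls among the 114. The smallest p-value of each list there had log2 fold changes such as 0.46 for glycogen synthase Gys1 (522 ± 130 CPM in exercise and 379 ± 108 CPM in sedentary libraries; SE 0.22), 0.62 for the kinase Pak1 (SE 0.27), 0.26 for the adaptor Grb2 (SE 0.14) and -1.02 for the AKT inhibitor Trib3 (SE 0.40).

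Among receptors and adaptors near Irs1, 2 of 12 tested were higher and 1 lower against sedentary (11.9% and 8.75% of all genes), and none was called with the GC correction. The RAS exchange factor Sos1 was at 1.23 (SE 0.22, adjusted p = 0.00110), with 25.0 ± 4.81 CPM in CD47-KO and 10.6 ± 2.22 CPM in sedentary libraries; the GC correction gave 0.13. The list's median was -0.12, where the median of all genes was -0.11. Of 11 brakes of the receptor, 1 was higher, the phosphatase Ptpn2 at 1.38 (SE 0.24, adjusted p = 0.000824; 0.17 with the GC correction). Grb14, which binds and inhibits the receptor, was called lower with the GC correction alone, at -1.18 against sedentary (adjusted p = 0.0349) and -1.40 against exercise (adjusted p = 0.0137), beside 0.12 and -0.18 without it, in the same comparisons.

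Among the 17 genes higher against sedentary, the largest log2 fold change lay at the lipid kinase step. Pik3ca, the catalytic subunit p110 alpha that insulin uses, had 71.4 ± 11.4 CPM in CD47-KO (n = 3) and 16.4 ± 2.78 CPM in sedentary libraries (SD, n = 6), a log2 fold change of 2.12 (SE 0.22, adjusted p = 1.49e-05). With the GC correction it was 1.05 (adjusted p = 0.0210). Against exercise, at 13.9 ± 3.53 CPM, it was 2.36 (SE 0.22, adjusted p = 4.02e-06), or 1.29 with the GC correction (adjusted p = 0.00526). In this list, of PI3K subunits, PDK1 and phosphatases of the pathway, 2 of 12 were higher and 2 lower against sedentary (11.9% and 8.75% of all genes). The other higher one was Pik3cb, another catalytic subunit, at 0.74 (SE 0.23, adjusted p = 0.0307). The lower ones were Pik3cd at -1.21 (SE 0.36, adjusted p = 0.0253) and Pik3r2 at -0.48 (SE 0.17, adjusted p = 0.0493). With the GC correction Phlpp1, a phosphatase of AKT, was the second called, at 0.74 against sedentary (adjusted p = 0.0266).

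**Figure D5:**
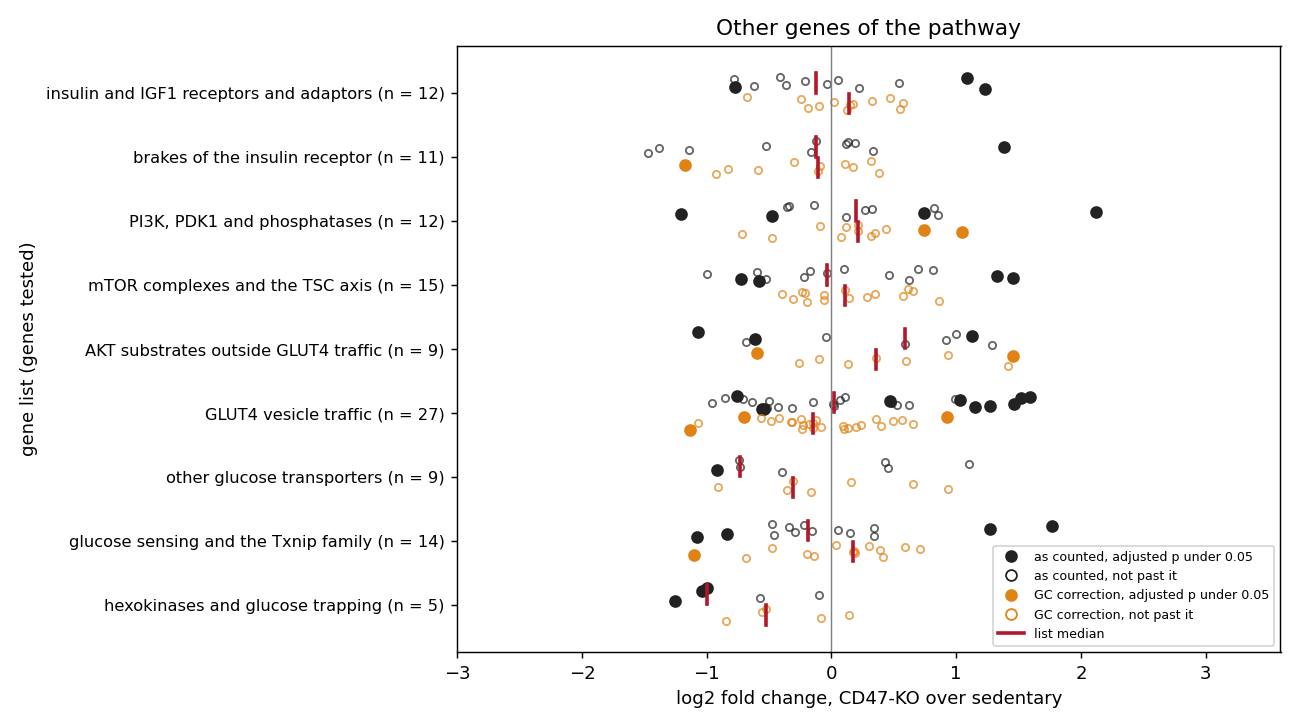
Log2 fold change of CD47-KO over sedentary for 114 other pathway genes in 9 lists, as counted (black) and with the GC correction (orange), with calls filled and list medians as red bars. Of 33 genes called as counted, 7 were called in the same direction with the correction.

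Of 15 genes of the mTOR complexes and the TSC axis, which control growth downstream of AKT, 2 were higher and 2 lower against sedentary. The shares of all genes were 11.9% higher and 8.75% lower. The S6 kinases were split, with Rps6kb1 at 1.46 (SE 0.28, adjusted p = 0.00156) and Rps6kb2 at -0.73 (SE 0.21, adjusted p = 0.0209), and none was called with the GC correction. Of 9 AKT substrates outside GLUT4 traffic, 1 was higher and 2 lower, beside the same shares of all genes. Foxo3, a forkhead factor that AKT keeps out of the nucleus, had 72.5 ± 17.9 CPM in CD47-KO and 33.1 ± 8.92 CPM in sedentary libraries, a log2 fold change of 1.13 (SE 0.24, adjusted p = 0.00346), and 1.46 with the GC correction (adjusted p = 0.000810). Against exercise it was 0.92 (SE 0.24, adjusted p = 0.0121), or 1.30 with the correction (adjusted p = 0.00131). Bad, which promotes cell death, was -1.07 against sedentary (SE 0.20, adjusted p = 0.00136) and -0.60 with the correction (adjusted p = 0.0433).

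Of 27 genes of GLUT4 vesicle traffic, 7 were higher and 3 lower against sedentary, where 11.9% and 8.75% of all genes were. With the GC correction 1 was higher and 2 lower, where 9.73% of all genes were called in either direction. Cltc, the clathrin heavy chain, had 152 ± 19.2 CPM in CD47-KO and 50.4 ± 17.2 CPM in sedentary libraries, at 1.59 (SE 0.26, adjusted p = 0.000488) and 0.92 with the correction (adjusted p = 0.00670). Vamp3, a vesicle SNARE of recycling endosomes, had 30.5 ± 1.35 CPM in CD47-KO and 44.3 ± 3.08 CPM in sedentary libraries, at -0.54 (SE 0.13, adjusted p = 0.00875) and -1.14 with the correction (adjusted p = 0.000492). Aspscr1 (TUG), which tethers GLUT4 vesicles, was -0.76 (SE 0.19, adjusted p = 0.00921) and -0.70 with the correction (adjusted p = 0.0306). Lnpep (IRAP), a cargo of the same vesicles as GLUT4, was 1.52 (SE 0.23, adjusted p = 0.000357), and 0.36 with the correction (adjusted p = 0.320).

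Among 9 other glucose transporters tested, 1 was called against sedentary, where 20.7% of all genes were. This was Slc2a8 (GLUT8) at -0.92 (SE 0.16, adjusted p = 0.000953), and -0.36 and not called with the correction. Of 14 genes of glucose sensing and the Txnip family, 2 were higher and 2 lower, where 11.9% and 8.75% of all genes were. Txn1, the thioredoxin that TXNIP binds, had 16.5 ± 1.86 CPM in CD47-KO and 29.5 ± 8.59 CPM in sedentary libraries, at -0.84 (SE 0.22, adjusted p = 0.0131) and -1.10 with the correction (adjusted p = 0.0134). The Txnip relative Arrdc3 was 1.77 (SE 0.58, adjusted p = 0.0411), and 0.59 with the correction (adjusted p = 0.663). Of 5 hexokinases and partners in glucose trapping, 3 were lower against sedentary, where 8.75% of all genes were. G6pc3, a glucose-6-phosphatase, had 19.9 ± 3.27 CPM in CD47-KO and 39.7 ± 7.97 CPM in sedentary libraries, at -0.997 (SE 0.22, adjusted p = 0.00517). Slc37a4, the glucose-6-phosphate translocase, was -1.25 (SE 0.39, adjusted p = 0.0322), and the hexokinase Hk1 was -1.04 (SE 0.35, adjusted p = 0.0450). None of the 5 was called with the GC correction.

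Akt1, Akt2 and Slc2a4 lay nearest each other among the members over the 15 libraries, and they were also the members that varied least. Likeness was taken as the root mean square difference of log2-CPM over 15 libraries, each gene less its own mean, which is smaller for more alike genes and for genes that vary little. It was 0.20 for Akt2 with Slc2a4, 0.20 for Akt1 with Slc2a4 and 0.31 for Akt1 with Akt2. Their own SDs were 0.31 for Akt1, 0.22 for Akt2 and 0.23 for Slc2a4, so these small differences do not show a shared pattern. Among 9805 other genes, Irs1, whose own SD was 0.72, was most like the zinc finger repressor Zeb2 at 0.14 and Tbc1d23 at 0.17. Irs2, whose own SD was 1.10, was most like the kinase gene Sik1 at 0.29 and Tmcc3 at 0.41. Insr, with an SD of 1.33, had no gene nearer than Ccdc77 at 0.55 and the transcription factor Tcf4 at 0.55. The nearest for Slc2a4 were Smpd1 at 0.10 and Hgsnat at 0.10, for Akt1 Abhd12 at 0.11 and Gna11 at 0.12, and for Akt2 Arf1 at 0.10 and Hps5 at 0.11. Tbc1d4 was nearest to Crybg3 at 0.22 and Taf1a at 0.26, Tbc1d1 to Tnpo2 at 0.36 and Mpp3 at 0.37, Slc2a1 to Rragb at 0.30 and Fbxo25 at 0.32, and Txnip to Tubgcp4 at 0.30 and Gcc1 at 0.33. The libraries share depth, set of numbers and group, and no p is given.

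Summed markers of adipocytes, macrophages and Schwann cells overlapped between CD47-KO and each other group. Adipocyte genes, which could carry Insr, Irs1 and Slc2a4 from fat, summed to 800 to 986 CPM in CD47-KO, 635 to 985 in exercise and 501 to 904 in sedentary libraries, over 10 genes of which up to 3 were at 0 in an exercise library and 2 in a sedentary one. Macrophage genes summed to 47.2 to 65.9 CPM in CD47-KO, 25.3 to 67.7 in exercise and 17.3 to 83.7 in sedentary libraries, and Schwann cell genes to 31.4 to 60.0 CPM in CD47-KO, 38.3 to 139 in exercise and 46.4 to 282 in sedentary libraries. Their part in the levels of Insr, Irs1 and Slc2a4 was not tested.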

How the data were processed

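The authors deposited gene counts, in 1 table of 22798 symbols and 15 libraries with 0 columns left unused. The submitters' processing notes name the build GRCm38, the counter HTSeq 0.6.1, the aligner HISAT2 2.0.1 and the trimmer Trimmomatic 0.30; the strand setting is not given in the sources used here. Among deposited counts from 1 to 15, those of 4, 8 and 12 took 32.1 to 50.2%, so they may not be plain counts of single reads. No 2 libraries were copies of each other (lowest chi-square per degree of freedom 78.1).

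The filter filterByExpr left 17975 genes, with all 10 members among them. Counts were scaled by TMM factors and tested in edgeR 4.0.16 (R 4.3.3) with a robust quasi-likelihood fit of all 15 libraries and Benjamini-Hochberg adjustment over all genes tested, at a threshold of 0.05. Log2-CPM took a prior count of 2. SE came from the fold change and its F statistic. The GC correction subtracted from each library a lowess curve (span 0.3) on the GC content of the longest transcript and entered as an offset. Other settings were RLE factors, a correction for both GC content and length, no filter, only the groups compared, no robust dispersion, the replicate number or set of numbers as a block, each set alone, each library left out, sedentary 1 and 6 left out, DESeq2 1.42.0 and limma-voom (limma 3.58.1). Of the symbols, 22711 matched the GRCm38 annotation once, 48 several times and 39 not at all.

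Members, gene lists, tests and settings were chosen with earlier results of these data known. From each list, the genes named were called members, up to 4 in each direction by p, or the 1 with the smallest p. For likeness, the 2 nearest genes with a mean log2-CPM of at least 1 were named. In all, 3 genes of these lists are not reported here and were left out of the list counts. The text gives a part of these, and Grb14 and Phlpp1 were named after their values were seen.

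Replicate numbers, from the titles, were checked as pairs. Deviations of same-numbered exercise and sedentary libraries correlated at 0.273 to 0.539, and of other numbers in the same set at 0.0487 to 0.492, with medians of 0.408 and 0.366. With the set removed the medians were -0.0331 for the same number and -0.0128 for other numbers, so the correlation lay with the set and not with the number. The fit with the number as a block was run as an alternative, beside that with the set. In the descriptions exercise libraries 4 to 6 carry other numbers. The method was checked on simulated counts with fold changes put in but no GC trend or set difference. That check cannot show how the GC correction or the pooled fit did on these data.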

Additional observations from a re-analysis of the deposited data

Results flagged for a closer look

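Akt2 in exercise library 4 was 381 CPM, far from the other 5 exercise libraries, of which the highest had 299 CPM. The gap to that library was 0.723 of the whole range of the group. Of 20 groups of 6 libraries examined in this way over the 10 members, 1 was picked out, and chance picks out about 1 in 20.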

How the results depend on the processing

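Irs1 was called higher in CD47-KO in every setting tried, and no member was called for exercise against sedentary in any. Genes called for exercise against sedentary were 0 in each setting but DESeq2 (10), and 0 in each fit without 1 library. For CD47-KO against sedentary, 3719 genes and 2 members were called; these became 1749 and 1 with the GC correction, 1746 and 1 with GC content and length, 5588 and 4 with numbers 1 to 3 alone, 4 members with numbers 4 to 6 alone, 4 without sedentary 1 and 6, and 5 by DESeq2 (Insr, Irs1, Akt1, Tbc1d4 and Slc2a4). Without 1 library they were 2178 to 3881 genes and 1 to 3 members. For CD47-KO against exercise, 3698 genes and 3 members became 1724 and 1 with the GC correction, 1973 and 1 with GC content and length, 1 member with no filter and 1 with numbers 1 to 3 alone, and 2292 to 3554 genes and 1 to 3 members without 1 library. Genes called were lowest without CD47-KO 3 against sedentary and without CD47-KO 2 against exercise. Where a setting is given with members alone, its count of all genes is not stated, so that member count cannot be read against a background. Some signs turned; of the values listed, Irs2 against exercise in numbers 4 to 6 passed the threshold (adjusted p = 0.0135 by edgeR). In exercise against sedentary the turned values were Insr at -0.058 with the replicate block, -0.13 with the set block, -0.63 in numbers 4 to 6 and -0.025 by limma-voom; Txnip at 0.044 with the replicate block, 0.27 in numbers 4 to 6 and 0.11 by limma-voom; Irs1 at 0.012 and Slc2a1 at -0.44 in numbers 1 to 3; and Tbc1d1 at -0.0024 in numbers 4 to 6. In CD47-KO against sedentary, Irs2 was -0.26 with the replicate block and -0.12 in numbers 1 to 3, Akt2 0.18 and Slc2a4 0.021 with the GC correction, and Akt2 0.10 and Slc2a4 0.025 with GC content and length. In CD47-KO against exercise, Irs2 was 0.27 with the GC correction, 0.23 with GC content and length, 1.33 in numbers 4 to 6 and 0.16 by limma-voom; Akt2 was 0.11 with the GC correction and 0.053 with GC content and length, and Akt1 0.022 with GC content and length. The difference of the exercise effect between sets was 0.043 for Akt2 with no filter. Without 1 library, the ranges that crossed 0 were, for exercise against sedentary, Insr -0.043 to 0.63, Tbc1d1 -0.057 to 0.25, Txnip -0.22 to 0.11 and Slc2a1 -0.11 to 0.26, and for CD47-KO against exercise, Slc2a1 -0.043 to 0.54 and Irs2 -0.38 to 0.28. Correlations of CD47-KO with libraries of the same number were -0.192 to 0.309, and with other numbers -0.324 to 0.303, with no test run. The replicate block for CD47-KO gave 4842 and 4980 genes and 2 and 3 members. By edgeR it had Insr called (1.07, adjusted p = 0.0361) and Slc2a4 not (-0.50, adjusted p = 0.0524) against exercise. It changed no call of exercise against sedentary. The causes were not tested. By edgeR without a block, Insr did not pass over all 15 libraries in either CD47-KO comparison, at an SE of 0.66. With the same 3 CD47-KO libraries it passed against each sedentary set alone and against exercise numbers 4 to 6 alone. Slc2a1 had the fewest counts of the members, 71 to 963 per library.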
